A study of Mus musculus with 16 samples.

Results

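The 8 genes described here encode collagens of types VI, VIII, XII, XIV and XVI in the mouse suprarenal aorta, the abdominal segment just above the renal arteries. They were chosen by gene name: Col6a1, Col6a2, Col6a3, Col8a1, Col8a2, Col12a1, Col14a1 and Col16a1, 8 of the 29695 genes in the count table, and all 8 passed the expression filter. The groups crossed genotype with infusion, with 4 biological replicates each. Male Vamp8-/- mice (KO) were given angiotensin II (AngII), a vasoconstrictor peptide that raises blood pressure, at 1000 ng/kg/min, or saline. Male C57BL/6 wild-type mice (WT) were given the same 2 infusions. Every animal, controls included, carried a subcutaneous osmotic minipump for 5 days. Aortae with visible bleeding in the wall or other pathology had been left out by the submitters, so the AngII groups hold vessels without overt lesions. Vamp8 encodes a SNARE protein of membrane fusion in secretion and endosomal traffic. The sources used here do not say how the allele was made, how old the animals were or whether the WT mice were littermates.

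None of these collagens builds the main tensile fibrils of the vessel wall. The collagen VI chains, encoded by Col6a1, Col6a2 and Col6a3, join into a heterotrimer that assembles into beaded microfilaments next to basement membranes and cells. Col8a1 and Col8a2 encode short, network-forming chains of collagen VIII, which vascular smooth muscle and endothelial cells make and which is known for its induction in injured arteries. Collagens XII, XIV and XVI are fibril-associated collagens with interrupted triple helices, which sit on or near the surface of fibrils. Col12a1 is known for tissue under load or repair, Col14a1 for mature adventitial and dermal matrix, and Col16a1 for links to fibrils and fibrillin-containing microfibrils.

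The sequences just upstream of 4 of the genes are shown because the 3 collagen VI genes moved together across libraries while Col8a1 did not follow them. Each is the 250 bases before the RefSeq transcript start (GRCm38.p6, minus strand, written 5′ to 3′). RefSeq promoters matched 6 of the 8 genes, all but Col12a1 and Col14a1, and for Col6a2 the first of 2 listed starts is shown. Capitals mark matches on either strand to 6 motifs. These were the TATA box (TATAAA), the GC box (GGGCGG), the CCAAT box, the AP-1 motif (TGACTCA), the CAGA box (CAGACA) and the CArG box of serum response factor. Overlapping matches were counted separately.
Col6a1, chr10:76726045-76726294: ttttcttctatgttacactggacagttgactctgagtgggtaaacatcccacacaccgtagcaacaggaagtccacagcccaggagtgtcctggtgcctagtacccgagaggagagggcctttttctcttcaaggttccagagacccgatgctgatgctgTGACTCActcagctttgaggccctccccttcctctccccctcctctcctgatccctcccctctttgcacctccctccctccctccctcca
Col6a2, chr10:76623405-76623654: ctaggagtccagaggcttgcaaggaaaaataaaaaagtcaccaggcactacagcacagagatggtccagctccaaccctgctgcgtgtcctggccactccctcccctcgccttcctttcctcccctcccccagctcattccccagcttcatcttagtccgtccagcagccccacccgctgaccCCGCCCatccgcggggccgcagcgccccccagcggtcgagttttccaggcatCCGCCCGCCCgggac
Col6a3, chr1:90843972-90844221: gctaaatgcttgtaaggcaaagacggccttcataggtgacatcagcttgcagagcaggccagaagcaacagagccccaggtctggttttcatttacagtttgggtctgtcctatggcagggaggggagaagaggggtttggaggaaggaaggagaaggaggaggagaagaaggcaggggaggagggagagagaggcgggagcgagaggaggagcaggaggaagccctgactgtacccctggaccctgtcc
Col8a1, chr16:57754738-57754987: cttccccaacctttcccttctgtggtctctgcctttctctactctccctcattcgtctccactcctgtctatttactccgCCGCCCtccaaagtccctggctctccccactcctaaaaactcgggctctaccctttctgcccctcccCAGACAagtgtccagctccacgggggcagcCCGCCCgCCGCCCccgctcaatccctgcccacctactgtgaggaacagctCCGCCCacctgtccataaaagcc
The Col6a1 window held 1 TGACTCA, 90 to 84 bases before the start, a motif present in 4.46% of 32851 promoter windows of the same length. The Col6a2 window held 3 GGGCGG matches and the Col8a1 window 4, a motif present in 32.7% of windows. Col8a1 also held 1 CAGACA (17.1% of windows), and the Col6a3 window held none of the 6 motifs. Col6a1 and Col6a2 lie on the same strand of chromosome 10 with 85.2 kb and no protein-coding gene between them. Their upstream windows shared none of the motifs searched, and these matches are letters in a window, not measured binding sites.

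Library size and makeup set the frame for the values. Total counts ran from 13284804 to 21643548, and levels are given as CPM, a count scaled to its library's total and adjusted by the trimmed mean of M values. Vamp8 itself was at 22.9 ± 5.90 CPM in KO AngII, 34.0 ± 13.2 CPM in KO saline, 55.8 ± 3.67 CPM in WT AngII and 51.9 ± 4.64 CPM in WT saline (mean ± SD, n = 4 each). KO against WT passed the test under AngII (log2 fold change -1.29, edgeR quasi-likelihood adjusted p = 0.00981) and not under saline (-0.61, adjusted p = 0.147). The library labelled KO saline replicate 1 held 53.3 CPM of Vamp8, within the WT range and against its label, so the main results that rest on the KO saline group are also given without it. Mitochondrially encoded genes took 10.1% to 24.3% of counts in KO AngII, 27.0% to 32.8% in KO saline, 9.56% to 16.3% in WT AngII and 8.33% to 17.7% in WT saline. KO AngII replicate 4 stood apart by neuron and chromaffin markers, with a summed level of 3998 CPM against 269 CPM or less in each of the other 15 libraries. A symbol was missing for 2725 genes, and exactly these had 0 reads in all WT libraries. They took 0.00530% to 0.0970% of counts in the KO libraries, and 0.00807% in the library labelled KO saline replicate 1. The listing of genes thus differed with genotype, and in KO against WT a difference in counting and the genotype cannot be told apart.

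The order of the 8 genes by level per kilobase of transcript placed the collagen VI α2 and α1 chains at the top and collagen VIII α2 at the bottom. Averaged over the 16 libraries, Col6a2 stood at 129 CPM per kb, Col6a1 at 104, Col14a1 at 52.4, Col6a3 at 48.6, Col16a1 at 13.9, Col8a1 at 13.0, Col12a1 at 3.55 and Col8a2 at 1.63 CPM per kb. Among 13893 tested protein-coding genes Col6a2 ranked 446th and Col8a2 10958th on that scale. Neighbours in this order lay close to each other, since Col14a1 had 56.9 ± 17.8 and Col6a3 49.5 ± 15.7 CPM per kb in WT saline (SD, n = 4 each). Col16a1 and Col8a1 likewise had 13.4 ± 3.25 and 14.3 ± 6.49 CPM per kb in KO AngII. The depth behind these levels ran from 57 reads of Col8a2 in its lowest library to 17890 reads of Col6a3 in its highest, so counting error weighs most on Col8a2.

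**Figure D1:**
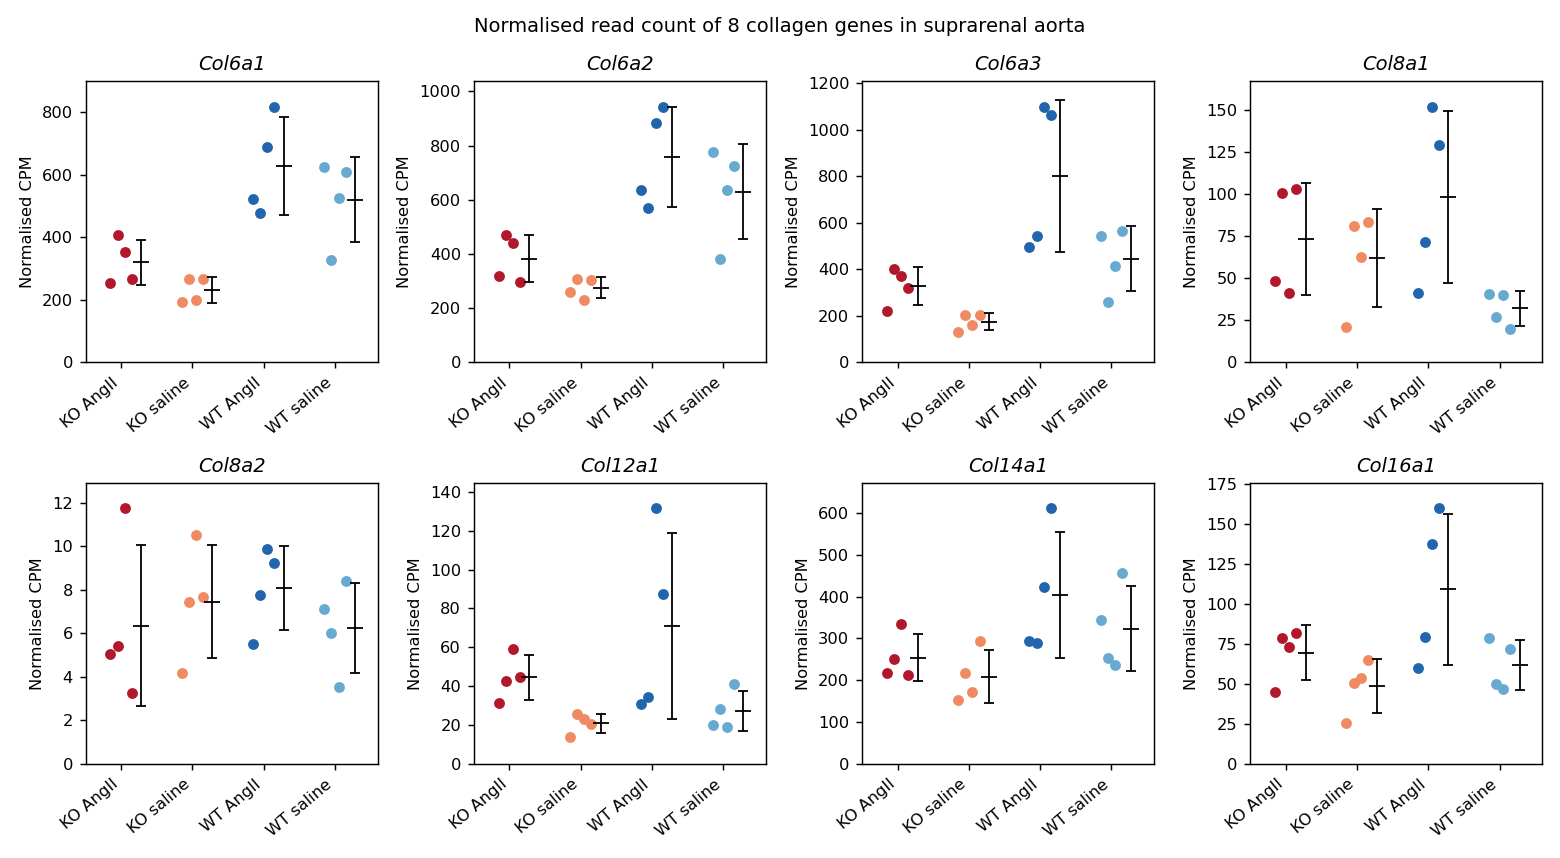
Normalised CPM (y axis, linear from 0) of each of the 8 genes in every library, by group (x axis, 4 points per group), with black bars for the mean ± SD. The KO points of Col6a1, Col6a2 and Col6a3 lie below all WT points of the same infusion, whereas Col8a1 is lowest in WT saline.

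Collagen VI was lower in KO than in WT aorta. All 3 chain genes fell under saline, with log2 fold changes from -1.36 to -1.17. Under AngII, Col6a2 and Col6a3 fell and Col6a1 missed the threshold. Col6a1 encodes the α1 chain that every collagen VI trimer contains. It had 193, 267, 200 and 267 CPM in KO saline replicates 1 to 4, against 623, 326, 525 and 608 CPM in WT saline replicates 1 to 4. The 2 groups did not overlap, and the nearest values were those of 2 KO libraries at 267 CPM and WT saline replicate 2 at 326 CPM. Its log2 fold change was -1.17 (SE 0.24, adjusted p = 0.0214, edgeR). Col6a2, the partner α2 chain, had 230 to 308 CPM in KO saline and 381 to 775 CPM in WT saline, again without overlap (log2 fold change -1.19, SE 0.24, adjusted p = 0.0199). Col6a3 encodes the long α3 chain, whose carboxy-terminal fragment is released as endotrophin. It had 130, 204, 161 and 202 CPM in KO saline, against 545, 260, 413 and 565 CPM in WT saline (log2 fold change -1.36, SE 0.31, adjusted p = 0.0334). Thus 3 of the 8 collagens were called lower, where 1.78% of all 15984 tested genes were, and groups without overlap, KO below WT, occurred in 5.94% of genes.

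The same chains stood below WT in AngII-infused mice. Col6a3 had 218, 403, 372 and 321 CPM in KO AngII replicates 1 to 4, against 494, 545, 1099 and 1064 CPM in WT AngII replicates 1 to 4. The lowest WT library thus exceeded the highest KO library, and WT AngII replicates 3 and 4 stood well above the other WT AngII libraries. The log2 fold change was -1.29 (SE 0.31, adjusted p = 0.0483 by edgeR). Col6a2 had 298 to 471 CPM in KO AngII and 568 to 944 CPM in WT AngII (log2 fold change -0.99, SE 0.24, adjusted p = 0.0483). Col6a1 had 253 to 406 CPM in KO AngII and 479 to 818 CPM in WT AngII, without overlap, but did not pass (log2 fold change -0.97, SE 0.24, adjusted p = 0.0503). The count was therefore 2 of 8, against 1.03% of all genes called lower in this comparison and 4.8% with KO below WT without overlap. DESeq2 called all 3 chain genes lower in both infusions, where it called 5.58% of genes lower under saline and 3.23% under AngII. limma voom called the 3 under saline (10.4% of genes) and none of the 8 under AngII (2.06% of genes).

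These calls lay close to the threshold, and leaving out 1 library often removed them. Under AngII this also held for saline libraries, which enter that comparison only through the shared fit. The direction held in each of the 26 alternative fits of each comparison. Under saline, no chain was called without WT saline replicate 1, 3 or 4 or KO saline replicate 1 or 3. Without the library labelled KO saline replicate 1, for example, the edgeR adjusted p was 0.0575 for Col6a1, 0.0509 for Col6a2 and 0.0854 for Col6a3. Under AngII, none was called without WT saline replicate 3, WT AngII replicate 3 or 4, KO saline replicate 2, 3 or 4, or KO AngII replicate 1, 2 or 4, and 1 was called without WT saline replicate 1 or 4 or WT AngII replicate 1. With both KO saline replicate 1 and KO AngII replicate 4 left out, Col6a1 (-1.09) and Col6a2 (-1.17) were called lower under saline (1.43% of all genes). None was called under AngII (0.871%). Over the alternatives, the log2 fold change of Col6a3 ranged from -1.55 to -1.23 under saline (adjusted p from 0.000877 to 0.103) and from -1.46 to -0.91 under AngII (adjusted p from 0.00176 to 0.170).

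The other collagens did not share a significant genotype difference. Col14a1 had log2 fold changes of -0.63 under saline and -0.67 under AngII (SE 0.29 each, adjusted p = 0.216 and 0.229). Col12a1 had -0.38 and -0.68 (SE 0.41 and 0.40, adjusted p = 0.585 and 0.424), and Col16a1 had -0.34 and -0.65 (SE 0.33 each, adjusted p = 0.542 and 0.321). Col8a1 pointed the other way under saline, with 20.7, 81.1, 62.6 and 83.4 CPM in KO replicates 1 to 4, against 40.7, 27.1, 40.2 and 19.9 CPM in WT replicates 1 to 4. Of the 4 KO libraries, 3 exceeded all WT libraries, and the exception was replicate 1, whose Vamp8 CPM lay within the WT range. The log2 fold change was 0.96 (SE 0.47, adjusted p = 0.245 by edgeR) with all libraries and 1.21 (SE 0.42, adjusted p = 0.163) without that one. Under AngII Col8a1 had -0.43 (SE 0.46, adjusted p = 0.725), the same sign as the other collagens. Col8a2 had 0.25 under saline and -0.35 under AngII (SE 0.38 each, adjusted p = 0.715 and 0.729).

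**Figure D2:**
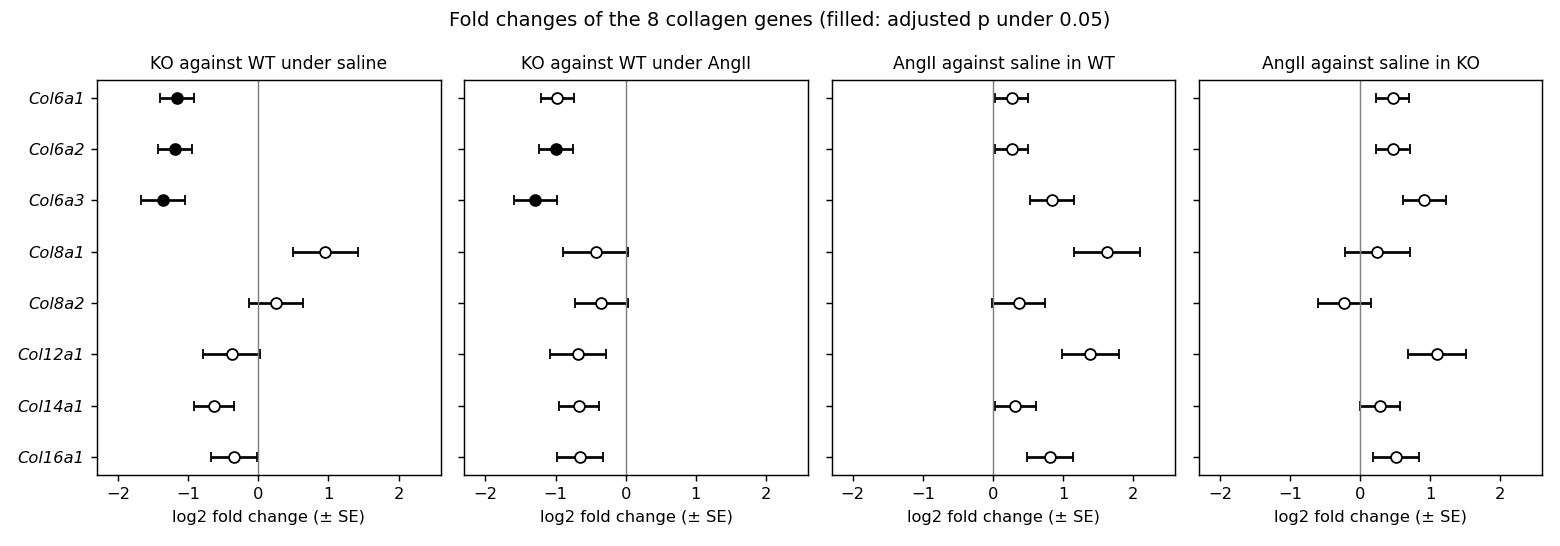
log2 fold change ± SE (x axis) of the 8 genes (rows) in 4 comparisons (panels) from the edgeR fit of all 16 libraries, with filled points at an adjusted p under 0.05. The filled points are the 3 collagen VI genes for KO against WT under saline and Col6a2 and Col6a3 under AngII.

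Several other measures moved with genotype, and their part in the collagen VI difference was not tested. In bulk tissue, fewer cells of a type and less RNA per cell cannot be told apart. The 8 fibroblast markers summed to 1406 to 2173 CPM in KO saline and 1547 to 2238 CPM in WT saline, ranges that overlap. Of them 2 of 8 had positive log2 fold changes, with a median of -0.17. At an edgeR unadjusted p under 0.05, 2 were lower (11.7% of all genes). None was called lower, and 1 was called higher in KO (Ly6a, log2 fold change 0.68), where 1.23% of all genes were. Under AngII they summed to 1002 to 1534 CPM in KO and 1552 to 2557 CPM in WT, without overlap, and 0 of 8 were positive. Their median log2 fold change was -0.51, with 4 of 8 lower at an edgeR unadjusted p under 0.05 (7.64% of all genes) and none called. Smooth muscle markers summed to 8557 to 11446 CPM in KO saline and 7813 to 21164 CPM in WT saline. Their median log2 fold change was -0.91, with 6 of 8 lower at an edgeR unadjusted p under 0.05 (11.7% of all genes) and none called. WT saline replicate 2, which had the lowest collagen VI of its group, was also its lowest library for smooth muscle markers. Skeletal muscle markers summed to 622 CPM in KO saline replicate 3 and to 5.94 to 26.1 CPM in the rest of that group. In WT saline they summed to 10.6 CPM or less. Adipocyte markers summed to 7458 to 19278 CPM in KO saline and 2394 to 14543 CPM in WT saline. Macrophage markers summed to 268 to 419 CPM in KO AngII and 358 to 1061 CPM in WT AngII. Of these, 8 of 8 were lower in KO at an edgeR unadjusted p under 0.05 (7.64% of all genes) and none was called. Neuron and chromaffin markers summed to 44.5 to 3998 CPM in KO AngII and 52.6 to 94.6 CPM in WT AngII. Their median log2 fold change was 8.62, and all 8 were higher at an edgeR unadjusted p under 0.05 (10.3% of all genes). Among them 2 were called higher (Chgb and Prph), against 0.995% of all genes, and Dbh had 0 reads in all WT AngII libraries. The highest sum was that of KO AngII replicate 4. Of 8 adipocyte markers, 1 (Lep, log2 fold change 3.41) was called higher in KO under AngII, against the same 0.995% of all genes. Schwann cell markers summed to 308, 477, 251 and 1450 CPM in KO AngII replicates 1 to 4, against 254 to 303 CPM in WT AngII. Endothelial markers summed to 783 to 1894 CPM in KO AngII and 633 to 1276 CPM in WT AngII. Chondrocyte markers had low sums, which were lower in KO without overlap. They were 6.04 to 8.26 CPM in KO saline and 9.66 to 39.7 CPM in WT saline. Under AngII they were 6.93 to 10.5 CPM in KO and 30.9 to 74.7 CPM in WT. Of the 6 markers 3 were tested, with 1 positive log2 fold change under saline and 0 under AngII. Of these, aggrecan (Acan) was called lower in both infusions (log2 fold change -2.41 under saline and -4.11 under AngII). Over all genes, 1.78% were called lower under saline and 1.03% under AngII. Matn1 had 0 reads in both KO groups and in WT saline, and Col2a1 in KO saline. In these comparisons no fibroblast, smooth muscle, skeletal muscle, adipocyte or macrophage marker was at 0 reads in a whole group.

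Transcript length also went with the fold changes. Across 15799 genes, which are not independent replicates, Spearman's rho between length and log2 fold change of KO against WT was -0.31 under saline and 0.10 under AngII. For AngII against saline it was -0.13 in WT and 0.37 in KO. Among the longest genes, from 4.35 kb, the median log2 fold change of KO against WT was -0.17 under saline, and 5.19% of those genes lay below -1. Among the 8 collagens, Col12a1 (11.5 kb) and Col6a3 (9.0 kb) are the longest, with -0.38 and -1.36 under saline, and Col6a1 (4.10 kb) and Col6a2 (3.95 kb) the shortest, with -1.17 and -1.19. The part of length in these values was not tested.

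Other matrix genes were also lower in KO than in WT aorta. Of 8 tested fibrillar collagens, 1 was called lower in KO under saline (Col5a1, log2 fold change -1.31) and 4 under AngII (Col1a1, Col1a2, Col5a1 and Col5a2, from -1.65 to -1.29), with none higher. Over all tested genes, 1.78% were called lower under saline and 1.03% under AngII, which is the background for each list that follows too. Their medians were -1.22 and -1.33, against -0.51 and -0.67 for the 8 collagens described here and 0.05 and 0.04 for all genes. Of 8 basement membrane collagens, 6 were called lower under saline and 5 under AngII. These were Col4a1, Col4a2, Col4a5 and Col15a1 in both infusions, Col4a6 and Col18a1 under saline and Col4a4 under AngII. Of 12 tested matrix partners, proteins known to bind one of these collagens, 3 were called lower under saline: tenascin C (Tnc, -1.62), fibrillin-1 (Fbn1, -1.43) and perlecan (Hspg2, -1.13). Under AngII only Fbn1 (-1.27) was. No collagen receptor passed among 11 tested (median -0.58 under saline and -0.36 under AngII). Of the other chains of the same collagen classes, 6 of 11 were tested and none passed, with medians of 0.05 and 0.20.

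**Figure D3:**
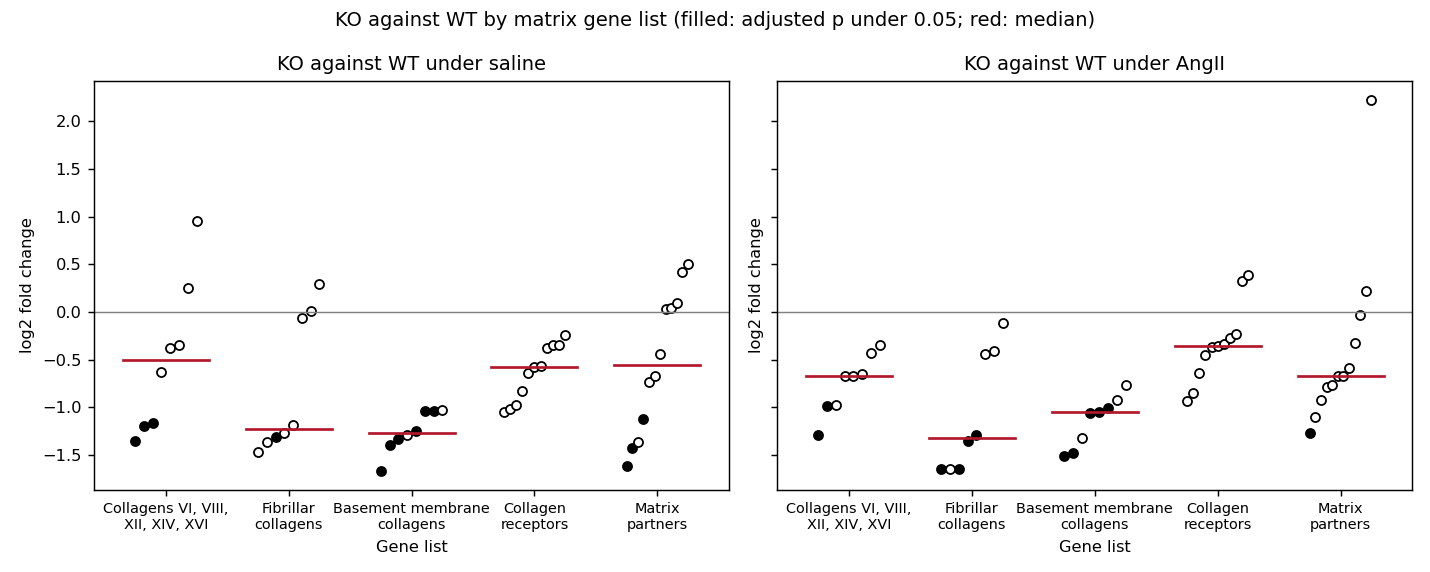
log2 fold change of KO against WT (y axis) for every tested gene of 5 lists (x axis) under saline and under AngII, with filled points at an adjusted p under 0.05 and red lines at the median. Basement membrane collagens all lie below 0 in both panels, and the 8 collagens described here range from -1.36 to 0.96 under saline.

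The response of these collagens to AngII within a genotype was then examined. In WT mice all 8 had positive log2 fold changes, with a median of 0.59 against -0.01 for all genes, but none passed the test across all genes. edgeR's quasi-likelihood test called 0 of 8 (0.438% of all genes were called higher), with 4 of 8 higher at an unadjusted p under 0.05 (5.58% of all genes). DESeq2 called 2, Col8a1 and Col12a1, where it called 1.4% of all genes higher, and limma voom called none (0.945% of all genes). Col8a1 had 41.1, 71.4, 152 and 129 CPM in WT AngII replicates 1 to 4, against 40.7, 27.1, 40.2 and 19.9 CPM in WT saline replicates 1 to 4. The groups did not overlap, though WT AngII replicate 1 exceeded the highest saline library by only a small margin. Groups without overlap in this direction occurred in 3.67% of genes. The log2 fold change was 1.62 (SE 0.47, adjusted p = 0.219). Col12a1 had 30.8, 34.6, 132 and 87.3 CPM in WT AngII, against 20.1, 28.3, 19.0 and 41.2 CPM in WT saline (log2 fold change 1.39, SE 0.41, adjusted p = 0.224). Its high values were those of WT AngII replicates 3 and 4, which were also the highest of their group for each of the other 7 genes. Macrophage markers summed to 358 to 1061 CPM in WT AngII and 280 to 588 CPM in WT saline, with 8 of 8 positive log2 fold changes (median 0.56), 3 at an unadjusted p under 0.05 and none called. Chondrocyte markers summed to 30.9 to 74.7 CPM in WT AngII and 9.66 to 39.7 CPM in WT saline, with none of 3 tested called. The part of either in the collagen values was not tested.

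Among the rest in WT mice, Col6a3 had a log2 fold change of 0.85 (SE 0.31, adjusted p = 0.376) and Col16a1 0.82 (SE 0.33, adjusted p = 0.442). Col8a2 (0.37), Col14a1 (0.32), Col6a1 (0.27) and Col6a2 (0.27) had smaller values with SE between 0.24 and 0.38.

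In KO mice the largest log2 fold changes were those of Col12a1 and Col6a3, and neither passed. Col12a1 had 31.3, 42.7, 59.2 and 44.7 CPM in KO AngII replicates 1 to 4, against 14.1, 25.6, 23.0 and 20.6 CPM in KO saline replicates 1 to 4. Every AngII library exceeded every saline library, as in 4.25% of genes (log2 fold change 1.09, SE 0.41, adjusted p = 0.190). Col6a3 had 218 to 403 CPM in KO AngII and 130 to 204 CPM in KO saline, also without overlap (0.92, SE 0.31, adjusted p = 0.166). With KO saline replicate 1 and KO AngII replicate 4 left out, the log2 fold changes were 0.94 for Col12a1 and 0.81 for Col6a3 (edgeR adjusted p = 0.424 and 0.353). Col8a1 had 48.3, 101, 41.0 and 103 CPM in KO AngII and 20.7, 81.1, 62.6 and 83.4 CPM in KO saline, which overlap. Its log2 fold change was 0.24 (SE 0.46) with all libraries and -0.04 without the library labelled KO saline replicate 1. In KO the neuron and chromaffin markers summed to 44.5 to 3998 CPM under AngII and 58.4 to 190 CPM under saline (median log2 fold change 4.16). Skeletal muscle markers summed to 5.74 to 20.8 CPM under AngII and 5.94 to 622 CPM under saline. The 622 CPM was that of KO saline replicate 3, and the rest of that group had 26.1 CPM or less. Their median was -3.57, with 6 of 7 lower at an edgeR unadjusted p under 0.05 (7.39% of all genes). Smooth muscle markers summed to 5698 to 16399 CPM under AngII and 8557 to 11446 CPM under saline, with 8 of 8 positive log2 fold changes (median 0.36). No marker of these 3 lists was called, and their part in the collagen values was not tested. edgeR called 0 of 8 in KO (0% of all genes were called higher), with 2 of 8 higher at an unadjusted p under 0.05 (11.8% of all genes), and neither DESeq2 (3.05% of all genes) nor voom (1.88%) called any.

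The difference between genotypes in the AngII response was tested directly and did not pass for any of the 8 genes, where 0.0188% of all genes were called. By edgeR none had an unadjusted p under 0.05 (6.61% of all genes higher and 4.61% lower), and neither DESeq2 (0.684%) nor voom (1.08%) called any. The furthest from 0 was Col8a1, with AngII log2 fold changes of 0.24 in KO and 1.62 in WT (interaction -1.38, SE 0.66, unadjusted p = 0.0527, edgeR adjusted p = 0.444). Without the library labelled KO saline replicate 1 it was -1.67 (SE 0.57, unadjusted p = 0.0114, edgeR adjusted p = 0.494). Without KO AngII replicate 4 it was -1.61 (SE 0.68, unadjusted p = 0.0325, edgeR adjusted p = 0.369). Collagen VI had interactions of 0.19 (Col6a1), 0.20 (Col6a2) and 0.07 (Col6a3), with SE between 0.34 and 0.43, so a moderate difference in response in either direction was not resolved. Averaged over both genotypes, all 8 log2 fold changes were positive and 6 of 8 had an unadjusted p under 0.05 (9.18% of all genes), but 0 passed by edgeR (0.857% called higher). Col12a1 came nearest (1.24, SE 0.29, adjusted p = 0.0555), followed by Col6a3 (0.88, SE 0.22, adjusted p = 0.0733). DESeq2 called these 2 genes (2.93% of all genes), and voom called none (1.96%). In the same average, Col5a2 (1.03), fibronectin (Fn1, 1.26) and tenascin C (Tnc, 1.37) rose, the called genes among the fibrillar collagens and matrix partners. Among the collagen receptors, the smallest p-values were those of Cd44 (0.82, adjusted p = 0.0856), Itga2 (0.81, adjusted p = 0.315) and Ddr1 (0.34, adjusted p = 0.329). Among the other chains they were those of Col20a1 (-0.31), Col10a1 (0.51) and Col9a3 (-0.24), with adjusted p from 0.494 to 0.786.

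Ratios between chains within a library do not depend on scaling, and they were compared for 4 pairs in 4 comparisons, 16 tests in all. Because the collagen VI trimer takes 1 chain of each kind, the transcripts of its 3 genes were set side by side per kilobase. Col6a2 over Col6a1 stayed within a narrow range, at 1.24 ± 0.066 in KO AngII, 1.24 ± 0.104 in KO saline, 1.26 ± 0.057 in WT AngII and 1.25 ± 0.032 in WT saline (SD, n = 4 each). Its log2 differences lay between -0.02 and 0.00, with SE between 0.04 and 0.07. Col6a3 over Col6a1 differed more. It was 0.430, 0.518, 0.727 and 0.593 in WT AngII replicates 1 to 4, against 0.398, 0.364, 0.358 and 0.424 in WT saline replicates 1 to 4. In KO it was 0.393, 0.452, 0.479 and 0.550 under AngII, against 0.306, 0.347, 0.366 and 0.343 under saline. In both genotypes each AngII library exceeded each saline library. The log2 difference was 0.53 in WT (SE 0.17) and 0.45 in KO (SE 0.11). Each had an exact two-sided permutation p = 0.0286, the smallest that 4 against 4 libraries can give, and an adjusted p = 0.152 over the 16 tests. Neither difference passed that adjustment. Without the library labelled KO saline replicate 1 the KO difference was 0.40, and without KO AngII replicate 4 it was 0.37. Col6a3 is the longer transcript, at 9.0 kb. As given above, longer genes tended to respond less to AngII in WT mice and more in KO mice, the latter being the direction of this rise. The part of length in this ratio was not tested in either genotype.

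The ratio of Col12a1 to Col14a1, both fibril-associated collagens, was 0.0863 ± 0.0136 per kb in KO AngII and 0.0512 ± 0.0139 in KO saline, without overlap (SD, n = 4 each). In WT it was 0.0837 ± 0.0472 under AngII and 0.0419 ± 0.0109 under saline, with overlap. The log2 difference was 0.78 in KO (SE 0.24, exact permutation p = 0.0286) and 0.90 in WT (SE 0.40, exact permutation p = 0.0571), with adjusted p = 0.152 and 0.229 over the 16 tests. Without the library labelled KO saline replicate 1 the KO difference was 0.74, and without KO AngII replicate 4 it was 0.69. Col12a1 is the longer transcript, at 11.5 kb against 5.68 kb for Col14a1, and the part of length in this ratio was not tested either. Col8a1 over Col8a2 varied widely, from 2.96 to 26.9 in KO AngII, 4.19 to 9.23 in KO saline, 6.35 to 13.0 in WT AngII and 2.01 to 9.63 in WT saline, and none of its comparisons passed. KO against WT gave no ratio difference with an unadjusted p under 0.05.

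**Figure D4:**
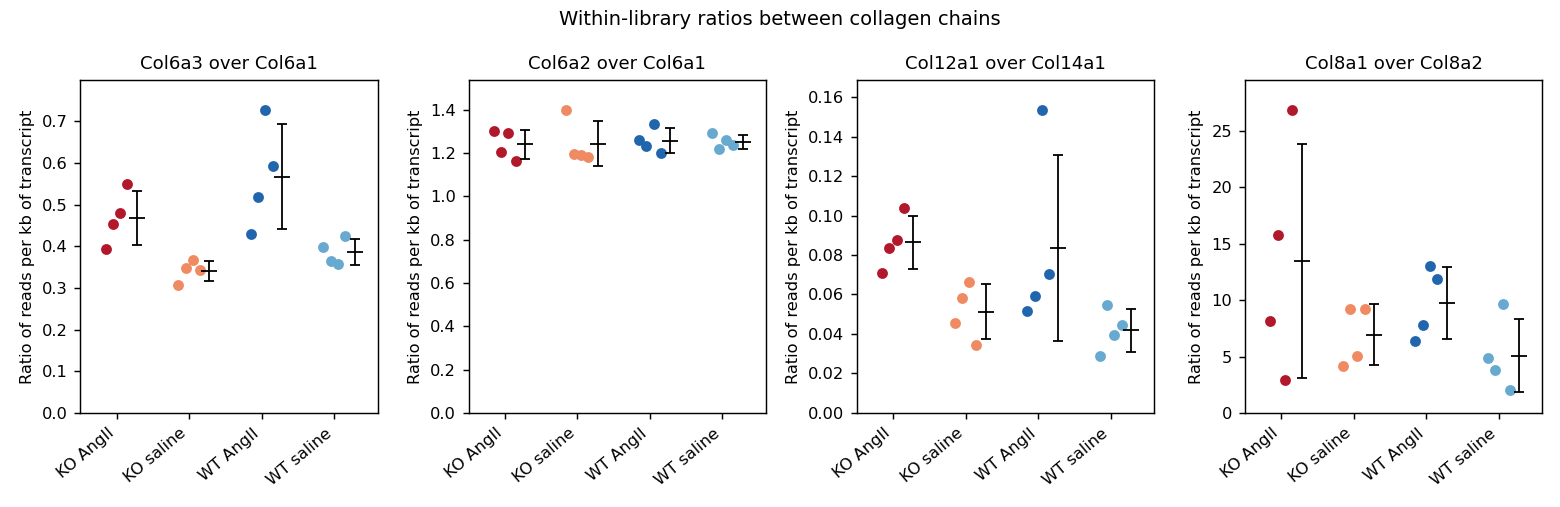
Ratio of reads per kb of transcript between pairs of chains (y axis, linear from 0) in every library, by group (x axis), with black bars for the mean ± SD of 4 libraries. Col6a3 over Col6a1 is higher in every AngII library than in every saline library of the same genotype, and Col6a2 over Col6a1 stays between 1.16 and 1.40.

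How the genes varied among libraries of the same group was described by Pearson's r of log2 CPM as deviations from the group mean (16 libraries, which share depth and scaling). The collagen VI chains were the most alike, with r of 0.97 for Col6a1 and Col6a2 (Spearman's rho 0.91), 0.92 for Col6a1 and Col6a3 (rho 0.86) and 0.88 for Col6a2 and Col6a3 (rho 0.87). Col16a1 varied with Col6a3 at 0.86, whereas the 2 collagen VIII chains had an r of 0.10. Over all 16 libraries without centring, the genes most like Col6a1 were Col6a2 (r = 0.99), Fbn1 (0.97), which encodes fibrillin-1, and Fkbp9 (0.97), a prolyl isomerase of the endoplasmic reticulum. For Col14a1 they were Fndc1, Man2b1 and Ptgfrn (0.95 to 0.94). For Col12a1 they were the heparanase gene Hpse (0.93), the actin capping gene Capza1 (0.92) and the netrin receptor gene Unc5b (0.91). For Col8a1 they were Spink2 (0.88), the mitotic kinesin gene Kif18b (0.88) and Pappa (0.87), a protease of insulin-like growth factor binding proteins.

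**Figure D5:**
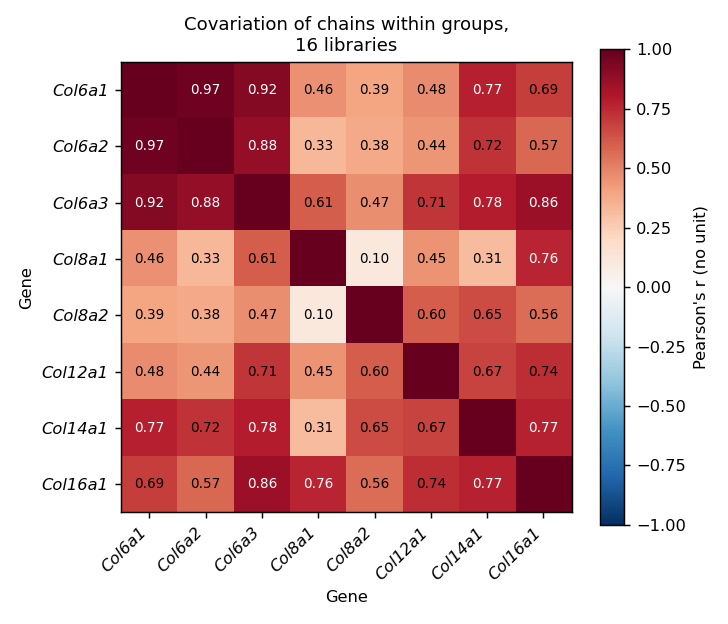
Pearson's r (colour and printed value) between each pair of the 8 genes (both axes), computed over 16 libraries on log2 CPM as deviations from the group mean. The collagen VI block holds values from 0.88 to 0.97, and Col8a1 with Col8a2 has 0.10.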

How the data were processed

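Poly-A selected RNA was sequenced in 16 libraries, described in the labels as biological replicates. The deposited values are raw read counts per gene. The submitters' processing notes name HISAT2 (2.0.5), featureCounts (1.5.0-p3), DESeq2 (1.20.0) and the build GRCm39. The sources used here do not state the annotation, the strand setting or how multi-mapping reads were treated. No exon of the 8 genes overlapped an exon of another gene in GENCODE M21 (GRCm38), from which transcript lengths (APPRIS principal transcript) were taken.

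From these counts, edgeR 4.0.16 under R 4.3.3 kept 15984 of 29695 genes by its default filter, holding at least 99.5% of each library's counts. After scaling by trimmed means of M values, 1 quasi-likelihood fit of all 16 libraries was tested by group contrasts, two-sided. Calls required an adjusted p (Benjamini-Hochberg, all tested genes) under 0.05. SE was taken as the size of the log2 fold change over the root of the F statistic, and the biological coefficient of variation was 35.3%. The fit was tested on simulated counts. Chain ratios were compared by exact permutation.

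Genes, lists and tests were chosen with earlier results of these data known. Named were the 8 genes, list genes that were called (or, where none was, the 3 with the smallest p for the average AngII effect) and the 3 genes most like Col6a1, Col8a1, Col12a1 and Col14a1. Alternatives were other scalings and filters, DESeq2 1.42.0, limma 3.58.1 voom, robust dispersion, a replicate block, fits of only the compared groups, and left-out libraries.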

Additional observations from a re-analysis of the deposited data

Results flagged for a closer look

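Within each group, the most extreme library was compared with the others for 8 levels and 4 ratios, 48 sets of 4 libraries in all, of which chance alone would flag about 1 in 20. A single value stood far from the rest of its group. The log2 ratio of counts of Col6a2 over Col6a1 was 0.43 in the library labelled KO saline replicate 1, and its gap to the next library made up 93.8% of the group's whole range. Per kilobase the ratio was 1.40 there and 1.18 to 1.19 in the other KO saline libraries. This is also the library whose Vamp8 CPM lay within the WT range, and the cause of either was not tested.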

How the results depend on the processing

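Directions of the collagen VI differences between KO and WT held in all 26 alternatives of each comparison, but calls did not. Of 2 collagens called under AngII, 0 remained with no expression filter, limma voom, the robust fit or only the groups compared. With both KO saline replicate 1 and KO AngII replicate 4 left out, 0 remained too. Under saline, 1 of 3 was called with only the groups compared. Leaving out each library in turn gave 0 to 3 calls under saline, 0 to 3 under AngII and 0 to 2 for the average AngII effect (2 without WT AngII replicate 1 or 2 or KO AngII replicate 1), and 0 in WT and in KO. DESeq2 called 2 in WT and 2 on average, where edgeR called 0. The log2 ratio of Col6a3 over Col6a1 ran from 0.40 to 0.66 in WT and 0.37 to 0.53 in KO with a library left out, with an exact permutation p = 0.0286 without any of the AngII libraries and 0.0571 without any of the saline libraries of the same genotype.

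The deviations of same-numbered libraries of different groups had a median r of -0.04 (24 pairs, r from -0.42 to 0.44, 8 over 0.1). For other pairs the median was -0.01. The labels do not say what the replicate numbers stand for, so these values can neither show nor exclude a pairing. With the replicate number as a block, 3 collagens were called under saline and 0 under AngII. The blocked ratio differences of 0.53 and 0.45 could not reach the threshold with 4 pairs.

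Signs that turned belonged to values near 0 or with wide errors. The Col14a1 interaction was 0.0054 with no filter, 0.19 with voom, 0.052 with the block and -0.26 to 0.23 with a library left out. The average effect on Col8a2 was -0.057 with voom and -0.17 to 0.18 with a library left out. The AngII effect on Col8a1 in KO was -0.26 with both libraries left out and -0.044 to 0.43 with 1 left out. The Col6a3 interaction was -0.034 with both left out and -0.10 to 0.26 with 1 left out, and the Col12a1 interaction -0.58 to 0.19. With 1 library left out, the log2 ratio of Col6a2 over Col6a1 ran from -0.024 to 0.027 for AngII in WT, -0.023 to 0.058 in KO, -0.071 to 0.0089 for KO against WT under saline and -0.041 to 0.012 under AngII. For KO against WT under AngII, Col8a1 over Col8a2 ran from -0.37 to 0.69 and Col12a1 over Col14a1 from -0.0096 to 0.51. Apart from the alternatives named, the causes were not tested. Depth limits Col8a2 most, and 4 libraries a group leave moderate differences unresolved.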
